A study of Capra hircus with 10 samples.

Results

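Matrix proteases and their inhibitors were followed through the ovarian cycle of the goat with 10 genes, namely the matrix metalloproteinases MMP2, MMP9, MMP14 and MMP19, the ADAMTS proteases ADAMTS1, ADAMTS4 and ADAMTS9, and the tissue inhibitors of metalloproteinases TIMP1, TIMP2 and TIMP3. They were taken by gene symbol from the 20587 protein-coding genes of the deposited table, and all 10 were present. The ovaries came from Anhui white goats at a slaughterhouse, 5 from the follicular phase and 5 from the luteal phase, and each whole ovary gave 1 ribosomal RNA-depleted library from untreated tissue. The labels give no age, do not say how the phase was read and do not say whether the 5 ovaries of a phase came from 5 animals, so p-values measure only the spread between these ovaries.

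The extracellular matrix of the ovary is taken down and rebuilt in every cycle, first when the follicle wall opens at ovulation and then when the corpus luteum forms and later regresses. MMPs and ADAMTS proteases are zinc enzymes made as inactive precursors, and they cut collagens, basement membrane proteins and proteoglycans such as versican and aggrecan. TIMPs bind the active site of these enzymes one to one, and they differ in their partners. TIMP2 also bridges MMP14 and the MMP2 precursor at the cell surface, where MMP14 activates MMP2, while TIMP3 stays bound to the matrix and inhibits ADAMTS proteases and membrane sheddases as well.

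Expression is given as FPKM, a density of fragments relative to transcript length and library size, added up over the transcripts of a gene. The FPKM of all transcripts together came to 452508 to 503276 in a luteal phase ovary and 492324 to 540124 in a follicular phase ovary. The depth of each library, and with it the counting error of an FPKM, is unknown, since no read counts were used here. The phases were compared with limma on log2(FPKM + 0.1) over the 15359 genes that passed the filter on low values, all 10 members among them, with an adjusted p (Benjamini-Hochberg over all genes tested) under 0.05 as a call. In the fit over all genes, 43.7% were called, with 15.9% higher and 27.8% lower in the luteal phase. Upward calls made up 36.3% of all calls. This share was 52.5% on the TPM scale (FPKM rescaled to a common sum per ovary) and 48.8% with all ovaries shifted to a common median. The phase labels were checked against cell type markers. Over 6 luteal cell genes, among them STAR and PTGFR, the luteal phase ovaries had summed FPKM of 5905 to 8076, the follicular phase ovaries 131 to 183, and all 6 genes were called upward. Over 8 granulosa cell genes the luteal phase sums of 110 to 705 overlapped the follicular phase sums of 269 to 1196, and 5 genes were called downward. Follicular phase replicate 2 stood furthest apart from the other ovaries of its phase. It lay far above or below the 4 others (by Dixon's criterion) in 3.62% of genes, against at most 2.27% for any other ovary.

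Of the 10 members, 6 were called. TIMP1, TIMP2, MMP19 and ADAMTS9 were higher in the luteal phase, MMP2 and MMP9 were lower, and MMP14, TIMP3, ADAMTS1 and ADAMTS4 did not pass the test. The calls are 4 of 10 upward against 15.9% of all genes and 2 of 10 downward against 27.8%. The phases did not overlap for 4 members, against 28.4% of all genes. These were TIMP1, TIMP2 and MMP19, higher in the luteal phase (as for 11.2% of all genes), and MMP9, lower (as for 17.2%). The median log2 fold change of the members was 0.27, and that of all genes tested was -0.14.

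**Figure D1:**
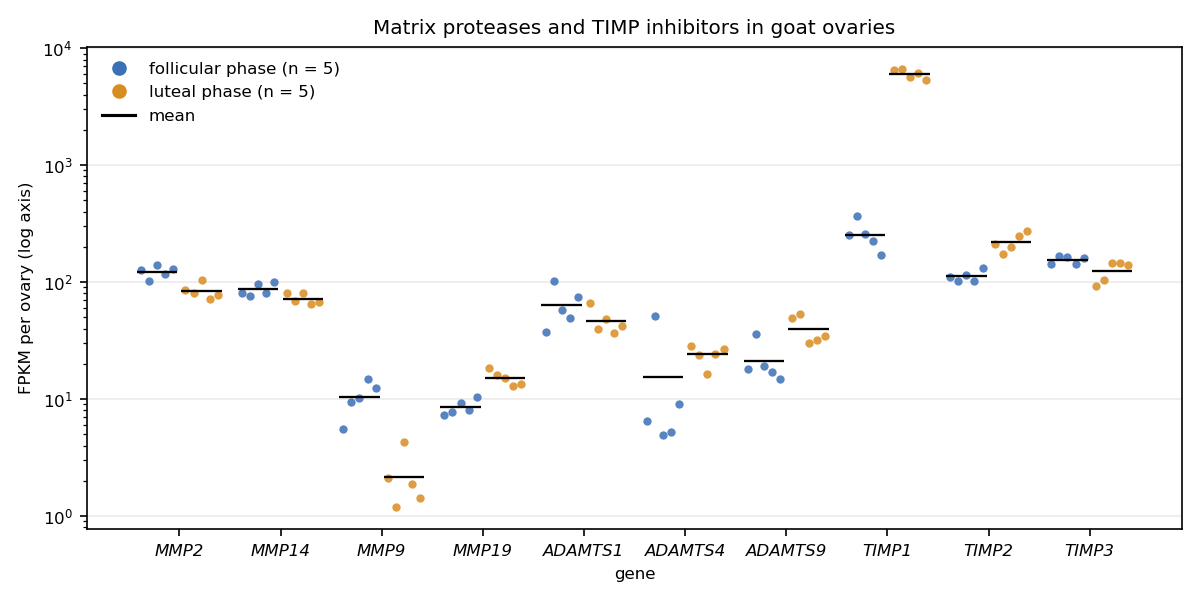
FPKM of the 10 members in each ovary on a log axis, with follicular phase ovaries in blue and luteal phase ovaries in orange (n = 5 each) and a black line at each mean. TIMP1 lies between 172 and 368 in the follicular phase and between 5322 and 6651 in the luteal phase, and MMP9 falls from a mean of 10.5 to 2.17.

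TIMP1, a secreted inhibitor that binds MMP9 and many other soluble MMPs but is a poor inhibitor of MMP19 and of membrane-type MMPs such as MMP14, changed most among the members. Its FPKM in luteal phase ovaries 1 to 5 was 6506, 6651, 5671, 6154 and 5322. In the follicular phase ovaries it was 253, 368, 257, 224 and 172. The lowest luteal phase ovary was at 14.5 times the highest follicular phase ovary. The means were 6061 ± 560 and 255 ± 71.8 (SD, n = 5 each), a ratio of 23.8. The log2 fold change was 4.61 (standard error 0.18, limma adjusted p = 1.49e-08), and it was the 24th largest rise among the 15359 genes tested. TIMP1 had the highest FPKM of all 20587 protein-coding genes in 5 of 5 luteal phase ovaries, while in the follicular phase its place ran from 154 to 299. Of the summed FPKM of protein-coding genes, TIMP1 took 0.0532% on average in follicular and 1.34% in luteal phase ovaries. The luteal cell markers moved with TIMP1, and their part in its rise was not tested. In whole ovaries, more cells of a type and more RNA per cell cannot be told apart.

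The table holds 2 transcripts of TIMP1, and nearly all of its FPKM was assigned to XM_005700836.3, with 254 ± 71.9 in the follicular phase and 6060 ± 560 in the luteal phase. The other transcript, NM_001314350.1, had 0.485 to 0.698 FPKM in follicular and 0.665 to 0.714 FPKM in luteal phase ovaries, with a log2 fold change of 0.19 (95% interval -0.24 to 0.63, limma adjusted p = 0.547 over all transcripts). The ratio of the leading transcript to the other differed between the phases (log2 difference 4.42, standard error 0.26, limma adjusted p = 4.61e-05, against 0.516% of genes called in this comparison). An exact permutation test of the leading transcript's share gave an adjusted p of 0.211 over all genes compared, since 5 ovaries against 5 cannot go below an unadjusted p of 0.00794. How the quantification divided reads between these overlapping transcripts is not given in the sources used here. In the goat annotation ARS1.2, TIMP1 lies inside the gene SYN1 and TIMP3 inside SYN3. SYN1 had at most an FPKM of 1.28 and SYN3 at most 0.197 in any ovary, far below the inhibitors they enclose.

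TIMP2, the inhibitor that also takes part in the activation of MMP2, was about doubled. In luteal phase ovaries 1 to 5 its FPKM was 213, 173, 200.2, 247 and 272. In the follicular phase ovaries it was 110.0, 103, 114, 101 and 131. The lowest luteal phase ovary lay above the highest follicular phase ovary. The means were 221 ± 39.0 and 112 ± 11.8 (SD, n = 5 each), and the log2 fold change was 0.97 (standard error 0.12, limma adjusted p = 0.000127).

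TIMP3, the matrix-bound inhibitor, went the other way by a smaller amount and did not pass the test. Luteal phase ovaries 1 to 5 had 92.7, 104, 145, 145 and 139 FPKM. The follicular phase ovaries had 142, 167, 165, 143 and 160 FPKM. The phases met between 142 and 145, where luteal phase replicates 3 and 4 lay above follicular phase replicates 1 and 4. The log2 fold change was -0.33 (95% interval -0.62 to -0.05, limma adjusted p = 0.0591). Of the 10 omissions of 1 ovary, 2 reached the call, luteal phase replicate 3 (adjusted p = 0.0375) and replicate 4 (adjusted p = 0.0452). The fall leaned on the lowest luteal phase ovaries, replicates 1 and 2. It shrank to -0.23 without replicate 1 (adjusted p = 0.118) and to -0.27 without replicate 2 (0.129). Rescaling moved it both ways. TPM gave -0.23 (0.200), equal medians gave -0.25 (0.187) and quantile normalization gave -0.40 (0.0469).

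The make-up of the inhibitors differed between the phases. TIMP1 held 48.1 ± 7.35% of the summed FPKM of the 3 TIMPs in follicular and 94.5 ± 1.26% in luteal phase ovaries (SD, n = 5 each). The summed FPKM of the 3 TIMPs over that of the 7 proteases was between 1.31 and 1.79 in the follicular phase and between 20.1 and 27.0 in the luteal phase. With TIMP1 left out, this ratio was between 0.703 and 0.893 in the follicular phase and between 0.927 and 1.61 in the luteal phase, so the phases stayed apart by a narrow margin. These sums describe mRNA and carry no test.

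MMP2, gelatinase A, which cuts denatured collagen and basement membrane collagen, was lower in the luteal phase. Its FPKM in luteal phase ovaries 1 to 5 was 84.9, 79.9, 105, 71.2 and 77.0. In the follicular phase ovaries it was 126, 102, 139, 117 and 131. The phases overlapped through 1 pair, luteal phase replicate 3 and follicular phase replicate 2. The means were 83.5 ± 12.8 and 123 ± 14.1 (SD, n = 5 each), and the log2 fold change was -0.56 (standard error 0.11, limma adjusted p = 0.00228).

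MMP9, gelatinase B, which has similar substrates and is also stored by neutrophils, showed the strongest fall. Luteal phase ovaries 1 to 5 had 2.101, 1.19, 4.25, 1.88 and 1.43 FPKM. The follicular phase ovaries had 5.51, 9.34, 10.2, 14.9 and 12.4 FPKM. The highest luteal phase ovary, replicate 3, stayed below the lowest follicular phase ovary, replicate 1. The log2 fold change was -2.28 (standard error 0.33, limma adjusted p = 0.000329), the 16th largest fall among the 15359 genes tested, and the follicular mean was 4.82 times the luteal mean. Neutrophil markers moved too. All 6 listed markers were in the table and 4 passed the filter, of which S100A8, S100A9 and ELANE were called lower and CXCR2 higher in the luteal phase. Their summed FPKM was 18.4 to 56.5 in follicular and 7.45 to 18.7 in luteal phase ovaries, while the defining granule gene MPO stayed at or below 0.0248 in every ovary and CSF3R at or below 0.207. Their part in the fall of MMP9 was not tested.

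MMP14, the membrane-bound activator of the MMP2 precursor, did not pass the test. Its FPKM in luteal phase ovaries 1 to 5 was 80.4, 68.2, 80.7, 64.3 and 67.0. In the follicular phase ovaries it was 81.3, 75.9, 96.6, 79.9 and 101. The luteal phase values reach up to the lower follicular phase values, so the phases overlap. The log2 fold change was -0.26 (95% interval -0.48 to -0.05, limma adjusted p = 0.0508). MMP14 passed the test, as lower in the luteal phase, when follicular phase replicate 2 was left out (adjusted p = 0.0283), and likewise for luteal phase replicate 1 (0.0390) or 3 (0.0363). Other settings moved it away from a call. The log2 fold change was -0.17 on the TPM scale (limma adjusted p = 0.279) and -0.18 with a shift to a common median (0.143). The adjusted p was 0.115 without follicular phase replicate 3, 0.114 without follicular phase replicate 5 and 0.120 without luteal phase replicate 4.

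MMP19, a soluble MMP of broad specificity, was the 1 of the 4 MMPs that rose in the luteal phase. Luteal phase ovaries 1 to 5 had 18.2, 16.02, 15.0, 12.8 and 13.5 FPKM. The follicular phase ovaries had 7.29, 7.80, 9.26, 8.05 and 10.5 FPKM. Every luteal phase ovary lay above every follicular phase ovary. The log2 fold change was 0.81 (standard error 0.12, limma adjusted p = 0.000413). MMP9 and MMP19 traded places in the order of levels, since MMP9 was above MMP19 in 4 of 5 follicular phase ovaries and below it in 5 of 5 luteal phase ovaries.

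Smooth muscle and stroma markers were also compared. All 5 smooth muscle genes (ACTA2, MYH11, DES, CNN1, TAGLN) were called lower in the luteal phase, as MMP2 was, with sums from 538 to 967 against 1176 to 1486 in the follicular phase. Of 6 stroma genes, TCF21 and NR2F2 were called lower and LUM higher, and the sums overlapped, at 1247 to 1794 in follicular and 1237 to 2321 in luteal phase ovaries. Their part in the change of MMP2 was not tested.

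ADAMTS1, which cuts versican in the expanding cumulus and the follicle wall and is known for its rise before ovulation, did not differ by more than the spread. Its FPKM in luteal phase ovaries 1 to 5 was 66.0, 39.3, 48.0, 36.4 and 42.3. In the follicular phase ovaries it was 37.5, 101, 57.7, 49.3 and 75.1. The follicular phase spanned the whole luteal phase range except luteal phase replicate 4. The log2 fold change was -0.41 (95% interval -0.95 to 0.12, limma adjusted p = 0.190), an interval that holds both 0 and a fall as large as that of MMP2. It was -0.23 without follicular phase replicate 2 (adjusted p = 0.394) and -0.59 without follicular phase replicate 1 (adjusted p = 0.0592).

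ADAMTS4, an aggrecan- and versican-cutting protease, did not pass the test with all ovaries and had the largest SD relative to its mean among the members within the follicular phase. Luteal phase ovaries 1 to 5 had 28.6, 24.0, 16.4, 24.3 and 26.8 FPKM. The follicular phase ovaries had 6.51, 50.9, 4.91, 5.17 and 8.98 FPKM. Follicular phase replicate 2 exceeded every luteal phase ovary, and the 4 other follicular phase ovaries lay below all of them. With all ovaries the log2 fold change was 1.31 (standard error 0.54, limma adjusted p = 0.0673). Without follicular phase replicate 2 it was 1.91 (adjusted p = 6.94e-05), so the outcome for ADAMTS4 rests on this ovary.

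ADAMTS9, which cuts versican and aggrecan and is anchored near the cell surface, was higher in the luteal phase. Its FPKM in luteal phase ovaries 1 to 5 was 49.3, 53.5, 29.9, 31.9 and 34.9. In the follicular phase ovaries it was 18.1, 36.2, 19.3, 17.0 and 14.7. Follicular phase replicate 2 lay within the luteal phase range and the 4 others below it. The means were 39.9 ± 10.7 and 21.1 ± 8.64 (SD, n = 5 each), and the log2 fold change was 0.96 (standard error 0.24, limma adjusted p = 0.00812).

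**Figure D2:**
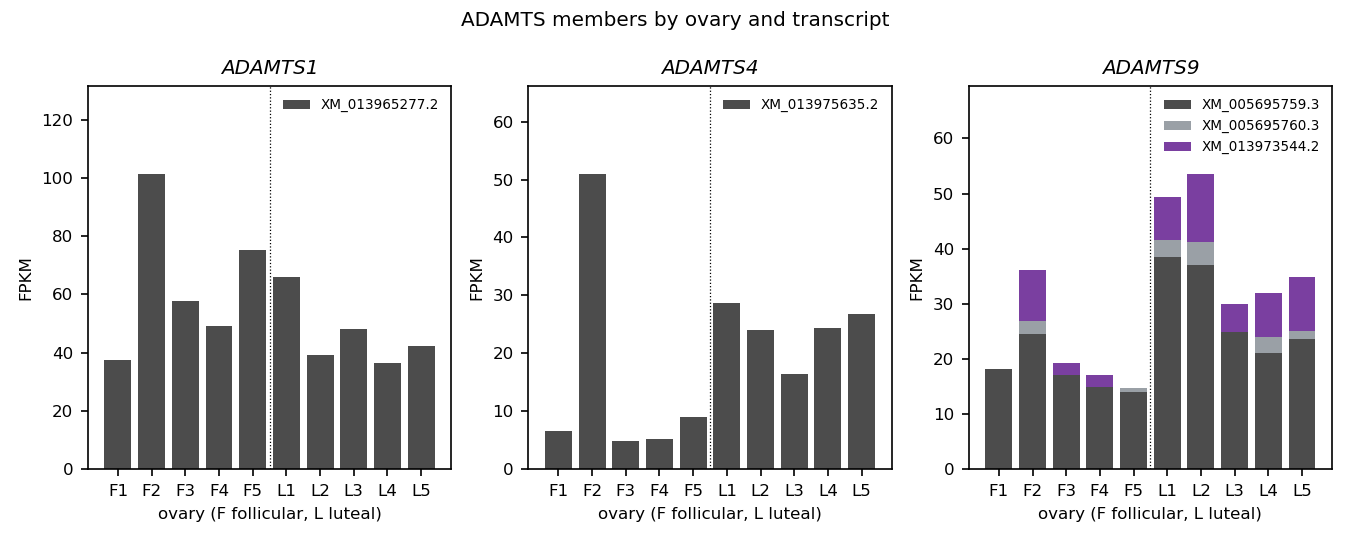
FPKM (bar height) of ADAMTS1, ADAMTS4 and ADAMTS9 in each ovary, F1 to F5 from the follicular phase and L1 to L5 from the luteal phase, with ADAMTS9 stacked by its 3 transcripts. F2 is the highest of the follicular phase ovaries for all 3 genes, at 101, 50.9 and 36.2, while the other follicular phase ovaries reach at most 75.1, 8.98 and 19.3.

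The 3 ADAMTS members were each highest, within the follicular phase, in replicate 2. Relative to the median of the 4 other follicular phase ovaries this ovary was 8.71 times as high for ADAMTS4, 2.06 times for ADAMTS9 and 1.89 times for ADAMTS1. TIMP1 was also highest there, at 1.54 times. MMP2 and MMP14 were at their lowest of the follicular phase in the same ovary. Among the follicular phase ovaries it had the lowest marker sums for stroma (1247, with the next lowest at 1622), endothelium (121) and macrophages (78.3), and the highest for smooth muscle (1486) and theca cells (202). Its luteal cell markers, at 150.04, and granulosa cell markers, at 473, lay within the range of the other follicular phase ovaries. The part of these differences in its ADAMTS levels was not tested.

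ADAMTS9 has 3 transcripts in the table. The leading one, XM_005695759.3, rose from 17.7 ± 4.13 to 29.0 ± 8.17 FPKM (log2 fold change 0.69, limma adjusted p = 0.0438 over all transcripts). XM_013973544.2 had 5.09 to 12.2 FPKM in luteal phase ovaries, while among follicular phase ovaries it was listed at 0 in 2 ovaries and had 2.15, 2.09 and, in replicate 2, 9.35 in the others (log2 fold change 3.28, adjusted p = 0.0851). XM_005695760.3 was listed at 0 in 3 follicular phase ovaries and in 1 luteal phase ovary and reached at most 4.18. The leading transcript held 87.9 ± 12.4% of the gene's FPKM in follicular and 72.8 ± 7.43% in luteal phase ovaries (SD, n = 5 each), a difference of its ratio to the others that did not pass the test (limma adjusted p = 0.435). The 8 members other than TIMP1 and ADAMTS9 have 1 transcript each in the table. Over the 13 transcripts of the members, 6 were called, against 17.3% of all transcripts, with 4 upward (7.47% of all) and 2 downward (9.82% of all). The 4 upward calls became 3 without a filter, without the trend and without any 1 of follicular phase replicates 1, 3, 4 and 5 or luteal phase replicates 1, 2, 3 and 5, and 6 without follicular phase replicate 2. The leading ADAMTS9 transcript was the upward call closest to the threshold.

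Set side by side per length, the order of levels also differed. In the luteal phase the order of mean FPKM was TIMP1, TIMP2, TIMP3, MMP2, MMP14, ADAMTS1, ADAMTS9, ADAMTS4, MMP19 and MMP9. The ranges of neighbours were apart for TIMP1 and TIMP2, TIMP2 and TIMP3, ADAMTS9 and ADAMTS4, and MMP19 and MMP9, and they overlapped for the other neighbours. For follicular phase ovaries the order was TIMP1, TIMP3, MMP2, TIMP2, MMP14, ADAMTS1, ADAMTS9, ADAMTS4, MMP9 and MMP19. Here TIMP1 and TIMP3, TIMP3 and MMP2, TIMP2 and MMP14, and ADAMTS1 and ADAMTS9 were apart, and the other neighbours overlapped. The place of ADAMTS4 above MMP9 and MMP19 rested on follicular phase replicate 2, without which its mean of 6.39 was the lowest of the 10.

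Proteases were set against the inhibitor each is best known to bind, as ratios of FPKM within an ovary and without a test. MMP2 over TIMP2 was between 0.992 and 1.22 in the follicular phase and between 0.283 and 0.523 in the luteal phase. MMP14 over TIMP2 was between 0.736 and 0.848 and between 0.246 and 0.403. For both pairs the phases did not overlap. MMP2 was above TIMP2 in follicular phase replicates 1, 3 and 4 and below it in every luteal phase ovary. MMP9 over TIMP1 was between 0.0218 and 0.0721 in the follicular phase and between 0.000179 and 0.000749 in the luteal phase, a ratio of means of 124. The ratios to TIMP3 overlapped between the phases, for ADAMTS4 only through follicular phase replicate 2. ADAMTS1 over TIMP3 was 0.407 ± 0.134 in follicular and 0.396 ± 0.183 in luteal phase ovaries. ADAMTS4 over TIMP3 was 0.0947 ± 0.118 and 0.203 ± 0.0733 (SD, n = 5 each). Without follicular phase replicate 2, where this ratio was 0.305, the follicular mean was 0.0420 ± 0.0115 (n = 4), with a highest value of 0.0561 against a luteal phase minimum of 0.113.

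**Figure D3:**
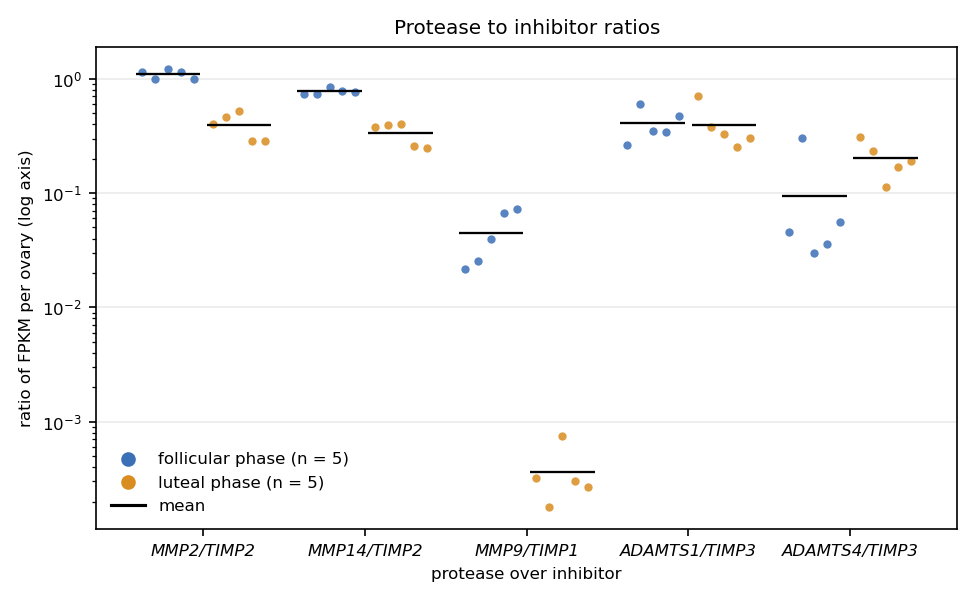
Ratio of protease FPKM to inhibitor FPKM in each ovary for 5 pairs, on a log axis, with follicular phase ovaries in blue, luteal phase ovaries in orange (n = 5 each) and a black line at each mean. MMP2/TIMP2, MMP14/TIMP2 and MMP9/TIMP1 are separated between the phases, ADAMTS1/TIMP3 overlaps, and ADAMTS4/TIMP3 overlaps only through follicular phase replicate 2 (0.305).

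With phase means removed, Pearson's r of log2(FPKM + 0.1) was computed over the 10 ovaries for the 45 pairs of members, as a description without a p. The values of a pair share a library and its scaling. The highest were TIMP1 with ADAMTS9 at 0.859, MMP2 with MMP14 at 0.836 and MMP14 with MMP19 at 0.824, the 3 pairs of at least 0.8. ADAMTS4 followed ADAMTS9 at 0.750 and ADAMTS1 at 0.686, and the lowest r was that of MMP2 with ADAMTS4, at -0.626. Without follicular phase replicate 2 the r of ADAMTS4 was 0.132 with ADAMTS9 and 0.316 with ADAMTS1, so both rested on that ovary. The same omission gave 0.660 for TIMP1 with ADAMTS9, 0.792 for MMP2 with MMP14 and 0.825 for MMP14 with MMP19, and -0.449 for MMP2 with ADAMTS4. It also changed which pairs stood at the ends, since the highest were then MMP19 with ADAMTS1 at 0.900 and MMP14 with ADAMTS1 at 0.858, and the lowest was TIMP3 with ADAMTS9 at -0.849. Among 11436 genes with a mean FPKM of at least 1, MMP2, the most abundant of the proteases, was followed closest by PCNX4 (r = 0.966), ATAT1 (0.964) and PELI2 (0.959). TIMP1 was followed closest by TEAD4 (0.964), MGAT2 (0.954) and PPRC1 (0.950). Without follicular phase replicate 2 the values for TIMP1 were 0.911, 0.890 and 0.879, the lowest that leaving out any 1 ovary gave. For MMP2 they were 0.954, 0.955 and 0.944 without it. Such values are the top of many and rest on 10 ovaries.

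Of the other 18 MMPs listed, 16 were in the table and 10 passed the filter. In the luteal phase 2 rose (MMP7 and MMP15), 3 fell (MMP11, MMP13 and MMP16) and 5 did not pass the test, against 15.9% of all genes called upward and 27.8% downward. MMP13 and MMP16 are named after their values were seen. MMP13 overlapped between the phases and lay close to the threshold (log2 fold change -1.65, limma adjusted p = 0.0414), and the number that fell was 2 with a pseudocount of 1, without a filter, with a minimum FPKM of 0.5, without the trend and under each rescaling tried. It was also 2 without follicular phase replicate 1, 3 or 4 and without luteal phase replicate 3 or 5, and 4 with the replicate block. The change of MMP7, matrilysin, an epithelial MMP of broad specificity, was larger than that of TIMP1. Its FPKM was 0.124 to 1.01 in follicular and 10.02 to 75.1 in luteal phase ovaries (median 21.0), without overlap, and the log2 fold change was 5.74 (standard error 0.51, limma adjusted p = 1.17e-05). MMP15, a membrane-bound MMP, rose from 2.88 ± 0.643 to 9.01 ± 2.69 FPKM (SD, n = 5 each; log2 fold change 1.58, limma adjusted p = 0.000275). MMP11, stromelysin-3, fell from 6.17 ± 1.08 to 2.57 ± 0.632 FPKM (log2 fold change -1.24, limma adjusted p = 0.000206). The median log2 fold change of the 10 MMPs tested was -0.28.

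Of 22 other ADAMTS and ADAMTS-like genes, 19 passed the filter, and 8 rose, 4 fell and 7 did not pass the test, against 15.9% of all genes upward and 27.8% downward. The number that fell was 2 on the TPM scale, without follicular phase replicate 1 and without luteal phase replicate 2. It was 3 with a pseudocount of 0.01, a minimum FPKM of 0.5, a common median, quantile normalization and the replicate block. Leaving out follicular phase replicate 3 or 5, or luteal phase replicate 1, 4 or 5, also gave 3. Leaving out luteal phase replicate 3 gave 5. ADAMTS3 and ADAMTS14, which trim procollagens, rose from 5.26 ± 0.888 to 12.5 ± 3.62 FPKM (log2 fold change 1.21, limma adjusted p = 0.000297) and from 0.673 ± 0.0923 to 1.89 ± 0.810 (1.29, adjusted p = 0.00170). ADAMTSL3, an ADAMTS-like protein without a protease domain, rose from 1.03 ± 0.398 to 2.79 ± 0.586 (log2 fold change 1.40, adjusted p = 0.000925). The median log2 fold change of the 19 was 0.28.

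**Figure D4:**
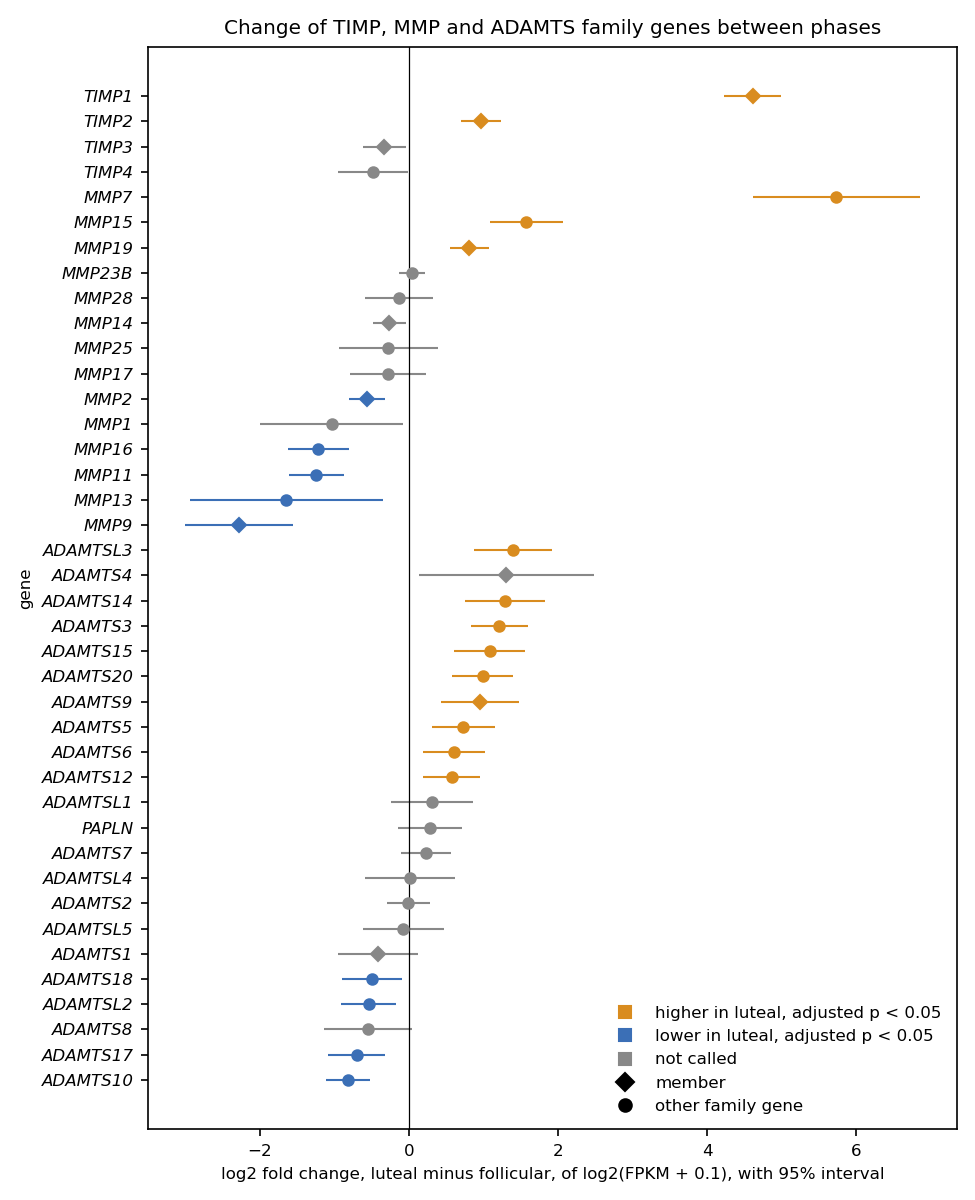
Log2 fold change (luteal minus follicular, of log2(FPKM + 0.1)) with its 95% interval for every TIMP, MMP and ADAMTS family gene that passed the filter, with members as diamonds and other genes as circles. Orange marks genes called higher and blue genes called lower in the luteal phase. TIMP1 at 4.61 and MMP7 at 5.74 lie far to the right, and MMP9 at -2.28 furthest to the left.

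Of 8 genes listed as other inhibitors or, in the case of LRP1, as the clearance receptor of these proteases, 6 were tested and 1 was called, against 43.7% of all genes. The count was 3 without follicular phase replicate 2, and 2 without follicular phase replicate 1 or luteal phase replicate 3, with the replicate block and with a minimum FPKM of 0.5. The 1 called gene was SPOCK1 (testican-1), which fell from 1.93 ± 0.449 to 0.881 ± 0.241 FPKM (log2 fold change -1.06, limma adjusted p = 0.00240). TIMP4, the remaining TIMP, and RECK, a membrane-anchored MMP inhibitor, both named after their values were seen, had log2 fold changes of -0.48 (limma adjusted p = 0.0885) and -0.27 (0.0502). In the activating and plasminogen system, 11 of 13 listed genes were tested, and 5 rose and 0 fell, against 15.9% of all genes upward and 27.8% downward. PLAU, the urokinase that turns plasminogen into plasmin, rose from 4.20 ± 0.689 to 12.7 ± 2.61 FPKM (log2 fold change 1.56, adjusted p = 2.36e-05). SERPINF2, the inhibitor of plasmin, rose from 9.94 ± 1.93 to 40.4 ± 8.81 (log2 fold change 2.01, adjusted p = 9.49e-06). CD44, a hyaluronan receptor to which MMP9 and MMP14 can bind, rose from 10.05 ± 1.48 to 18.3 ± 6.60 (log2 fold change 0.80, adjusted p = 0.00941).

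Of 26 matrix proteins that these proteases cut, 23 were tested, and 10 rose, 0 fell and 13 did not pass the test. Over all genes 43.7% were called, a share close to that of this list, with 15.9% upward and 27.8% downward. The basement membrane chains COL4A1 and COL4A2 rose from 59.0 ± 5.76 to 163 ± 16.1 FPKM (log2 fold change 1.46, limma adjusted p = 6.13e-07) and from 25.2 ± 3.39 to 63.1 ± 10.6 (1.31, adjusted p = 1.68e-05). LUM, the collagen-binding proteoglycan lumican, rose from 94.8 ± 38.7 to 276 ± 130 (1.51, adjusted p = 0.00352). Versican (VCAN), the substrate shared by the 3 ADAMTS members and named here after its values were seen, had overlapping levels of 79.8 ± 23.1 FPKM in follicular and 58.7 ± 9.65 FPKM in luteal phase ovaries (log2 fold change -0.41, adjusted p = 0.113). The median log2 fold change of the 23 was 0.28.

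Of 9 membrane sheddases of the ADAM family, some of which TIMP3 inhibits, 9 were tested, and 6 rose, 0 fell and 3 did not pass the test, against 15.9% of all genes called upward. All 6 were without overlap between the phases, as were 11.2% of all genes in this direction. The largest changes were those of ADAM12 (log2 fold change 1.05, limma adjusted p = 0.000655), ADAM19 (0.83, adjusted p = 0.00551) and ADAM9 (0.75, adjusted p = 0.000195), and the median of the 9 was 0.38. ADAM17, the sheddase best known as a target of TIMP3 and named after its values were seen, was among the 6 (log2 fold change 0.38, limma adjusted p = 0.00225).

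Endothelial and macrophage markers were examined beside these lists. All 8 endothelial genes were called higher in the luteal phase, with sums from 246 to 322 against 121 to 151 in the follicular phase. Of 8 macrophage genes, 7 were in the table and 4 were called higher, with sums of 78.3 to 142 in follicular and 199 to 275 in luteal phase ovaries. The theca cell genes INSL3 and CYP17A1 (the latter under its locus symbol) and all 5 oocyte genes were called lower in the luteal phase. Red blood cell genes were near 0, with the 3 genes in the table summing to at most 0.221 FPKM. The part of these cell types in the changes of the members was not tested.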

How the data were processed

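Strand-specific, paired-end libraries were made from ribosomal RNA-depleted total RNA of 10 goat ovaries. The authors aligned the reads with HISAT2 2.0.4, assembled transcripts with StringTie 1.3.1 and computed the deposited FPKM of each transcript and ovary with Cuffdiff 2.1.1, without pooling. The genome build is not given in the sources used here. Columns were assigned to ovaries by phase and number. FPKM of protein-coding transcripts were summed by symbol. Genes that reached an FPKM of 0.1 in 5 or more ovaries entered the test on log2(FPKM + 0.1), a scale that understates the change of low genes, with limma 3.58.1 (lmFit, eBayes with trend; R 4.3.3), two-sided, luteal minus follicular. The study's own Cuffdiff test works on aligned reads and was not repeated. Transcripts were tested in the same way, and so were ratios of the leading to the other transcripts in genes with at least 2 transcripts, a mean FPKM of at least 1 and at least 0.1 outside the leading transcript. Python 3.11.15 served for sums, ratios and plots. The fitting steps were tested on simulated data. Symbols absent from the table were sought among RefSeq synonyms of ARS1.2. The members, lists and tests were chosen with earlier results of these data known. From each list beyond the members, at most the 3 called genes with the largest change and no overlap were named by rule. MMP13, MMP16, VCAN, TIMP4, RECK, ADAM17 and the cell type markers were named outside it, after their values were seen. Alternatives were other pseudocounts, filters and normalizations, eBayes without trend, a replicate block, the leading transcript only and leaving out each ovary. Correlations without each ovary, and ratios and levels without follicular phase replicate 2, were added after seeing the data. Equal replicate numbers were not treated as pairs.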

Additional observations from a re-analysis of the deposited data

Results flagged for a closer look

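In the 20 groups of 5 ovaries formed by the members and phases, 2 values lay far from the other ovaries by Dixon's criterion at the 95% level. Normally spread values give about 1 in 20 groups. Over all genes tested, the share was 3.62% for follicular phase replicate 2 and 0.430% to 2.27% for each other ovary. These shares add up within a phase. Both member values belong to follicular phase replicate 2. ADAMTS4 was at 50.9 FPKM in this ovary against 4.91 to 8.98 in the 4 others. ADAMTS9 was at 36.2 FPKM against 14.7 to 19.3. Both values come from the same library. Without this ovary the log2 fold change of ADAMTS9 was 1.17, against 0.96 with it.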

How the results depend on the processing

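All 10 members kept the sign of their change under all alternatives, and the 6 called members stayed called under every one of them. The number of members called ran from 6 to 8 when each ovary was left out in turn, and it was 8 with quantile normalization and 7 with a minimum FPKM of 0.5, MMP14 being added in both and TIMP3 in the first. With the replicate block 8 members were called, MMP14 and TIMP3 being added. On the TPM scale and with a shift to a common median, neither MMP14 nor TIMP3 was called, and both had smaller changes. Equal numbers of the phases correlated between 0.0258 and 0.199 after phase means were removed, with 5 of 10 ovaries closest to their own number. Whether equal numbers form pairs was not tested. The labels name no pairs, so the numbers were not treated as such. Of the other inhibitors and the clearance receptor 1 was called, against 2 with a minimum FPKM of 0.5, 2 with the replicate block and from 1 to 3 without 1 ovary (3 without follicular phase replicate 2, and 2 without follicular phase replicate 1 or luteal phase replicate 3). Of the 2 leading transcript ratios, 1 was called with limma and 0 by exact permutation of the share, where an unadjusted p under 0.05 was reached by both. Member transcripts called ran from 5 to 8 without 1 ovary, against 6. The depth of each library is not known here, so no limit from counting can be given for low genes.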
